A study of Mus musculus with 6 samples.

Results

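Transcripts of mesothelial cell markers were measured in RNA sequencing libraries of sorted innate lymphoid cells (ILCs) of the mouse lung. Of the 52636 genes in the deposited count table, 8 were taken by symbol: Upk3b, Msln, Upk1b, Krt19, Wt1, Muc16, Lrrn4 and Bnc1. All 8 were found, and all 8 passed the filter on low counts with 15197 genes in all. The fibroblast genes Lum and Col3a1 served as reference. ILCs are lymphocytes without rearranged antigen receptors. The 2 groups were KLRG1-negative and KLRG1-positive cells, with 3 libraries each, and KLRG1 is a lectin-like receptor of activated group 2 ILCs (ILC2). Both groups came from wild-type C57BL/6 mice with the Il4 4get reporter, in which green fluorescent protein marks cells that transcribe Il4, given 500 ng of interleukin-33 intraperitoneally for 4 days and killed on day 5. Cells were gated as lineage-negative and CD90-positive, with a stated purity above 90%. The lineage panel, and whether the 3 libraries of a group came from separate mice, are not given in the sources used here, and the p-values reflect no more than how these libraries vary, which may be technical.

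The mesothelium is the flat cell sheet that covers the lung as visceral pleura and lines the pleural cavity. Its cells join epithelial features, such as keratins and a mucin-coated surface, with a mesodermal origin, and in the embryo they can give rise to fibroblasts and mural cells. They secrete lubricating fluid and carry the surface proteins mesothelin (Msln) and Muc16, which bind each other. Upk3b and Upk1b belong to the uroplakins, membrane proteins best known from the bladder lining. Wt1 and Bnc1 are zinc finger transcription factors, Krt19 is a keratin that simple epithelia also make, and Lrrn4 is a leucine-rich repeat membrane protein.

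The libraries held 17323004 to 23946073 assigned counts. Levels are CPM, counts divided by a library size that was scaled by trimmed mean of M values. ILC2 genes (Gata3, Rora, Il1rl1, Arg1 and Il5) summed to 4972 to 5907 CPM in KLRG1-positive and to 541, 2658 and 2062 CPM in KLRG1-negative libraries. KLRG1-negative library 1 stood apart, with the lowest ILC2 sum and the highest T cell sum (2587 CPM, against 1002 and 555 in the other two). Both libraries numbered 1 held the alveolar epithelial transcript Sftpc, at 366 CPM (KLRG1-negative) and 330 CPM (KLRG1-positive), against at most 2.33 CPM in the other 4 libraries. The calls that changed without these libraries are given after the other results.

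Promoter windows were held for 4 of the markers and are shown from 250 bases before to 50 after the RefSeq start site (GRCm38.p6). Any part of these sequences in the marker levels was not tested. Capitals mark matches to 4 motifs, each searched on both strands. The core shared by WT1 and EGR sites was spelled GCGTGGG, and the core of TEAD sites was spelled GGAATG. The motif GGGCGG is bound by Sp-family factors and is called the GC box here. The motif of the TATA box was spelled TATAAA.
Upk3b, chr5:136038246-136038545, plus strand: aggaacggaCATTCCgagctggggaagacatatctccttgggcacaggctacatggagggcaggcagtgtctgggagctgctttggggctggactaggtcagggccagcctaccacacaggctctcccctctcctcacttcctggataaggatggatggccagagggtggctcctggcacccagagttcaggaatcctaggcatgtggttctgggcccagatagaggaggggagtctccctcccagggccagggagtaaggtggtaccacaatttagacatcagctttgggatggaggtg
Muc16, chr9:18674554-18674853, minus strand: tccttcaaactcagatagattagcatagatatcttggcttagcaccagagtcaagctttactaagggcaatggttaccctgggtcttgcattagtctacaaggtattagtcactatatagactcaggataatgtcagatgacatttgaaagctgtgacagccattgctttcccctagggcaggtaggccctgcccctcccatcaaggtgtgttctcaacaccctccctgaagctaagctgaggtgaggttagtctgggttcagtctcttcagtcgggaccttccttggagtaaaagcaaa
Lrrn4, chr2:132880813-132881112, minus strand: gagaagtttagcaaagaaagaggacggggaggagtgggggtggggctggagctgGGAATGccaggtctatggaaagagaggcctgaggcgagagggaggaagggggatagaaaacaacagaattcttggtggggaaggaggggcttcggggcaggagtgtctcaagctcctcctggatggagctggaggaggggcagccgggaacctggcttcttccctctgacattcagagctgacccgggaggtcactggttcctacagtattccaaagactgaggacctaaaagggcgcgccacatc
Bnc1, chr7:81992250-81992549, minus strand: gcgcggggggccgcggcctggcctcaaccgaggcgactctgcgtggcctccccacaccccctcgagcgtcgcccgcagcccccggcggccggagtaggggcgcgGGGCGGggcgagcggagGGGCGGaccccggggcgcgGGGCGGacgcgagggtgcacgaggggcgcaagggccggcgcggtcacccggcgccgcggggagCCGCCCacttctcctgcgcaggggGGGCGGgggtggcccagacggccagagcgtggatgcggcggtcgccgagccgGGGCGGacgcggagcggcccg
None of the 4 motifs was in all 4 windows, and beyond these motifs and the G and C content the windows were not compared. Bnc1 lay in sequence of 83.3% G and C, against a median of 52.7% over all 32851 windows, and held 6 GC boxes, a number reached by 1.35% of windows. At least 1 GC box was present in 35.7% of all windows and in 1 of the 4. GGAATG stood 241 bases before the start of Upk3b, on the opposite strand, and 196 bases before that of Lrrn4, and 14.7% of all windows held it. GCGTGGG, found in 5.04% of all windows, and TATAAA, found in 13.6%, were in 0 of the 4. None of the motifs overlapped another in these windows.

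All 8 markers were far more abundant in the KLRG1-negative libraries, and for each of the 8 every KLRG1-negative library lay above every KLRG1-positive one. Such a separation was seen in 15.2% of all genes tested. Summed over the 8 genes, the KLRG1-negative libraries held 166, 1166 and 1033 CPM and the KLRG1-positive libraries 14.3, 19.4 and 7.46 CPM. The markers made up 0.0167, 0.123 and 0.0990% of all counts in the KLRG1-negative libraries, with 95% exact binomial intervals of 0.0161 to 0.0173, 0.122 to 0.125 and 0.0977 to 0.100%. In the KLRG1-positive libraries the shares were 0.00147, 0.00191 and 0.000717%, with intervals of 0.00129 to 0.00166, 0.00172 to 0.00211 and 0.000613 to 0.000834%. These intervals take in only counting error, because reads copied by PCR are not separate molecules. In such bulk samples fewer cells of a type and less RNA per cell cannot be told apart.

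None of the 8 differences passed the test over all genes. By edgeR's quasi-likelihood test 0 of 8 had an adjusted p under 0.05, with adjusted p from 0.0525 to 0.0885, where 1.21% of all tested genes were called lower and 0.125% higher in KLRG1-positive cells. At an unadjusted p under 0.05 all 8 were lower and 0 higher, against 11.5 and 4.19% of all genes. DESeq2 called 8 of 8 lower, against 8.79% of the genes to which it gave an adjusted p. Without the filter on low counts edgeR called 5 of 8 lower (Upk3b, Krt19, Wt1, Lrrn4 and Bnc1), against 1.05% of all genes. The log2 fold changes ran from -11.67 to -4.16 with a median of -6.86, beside a median of -0.05 over all genes tested, and 4.96% of all genes lay at or below -4. With the replicate number as a block, edgeR also called 0 of 8, with adjusted p from 0.0680 to 0.167, and 0.349% of all genes lower.

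**Figure D1:**
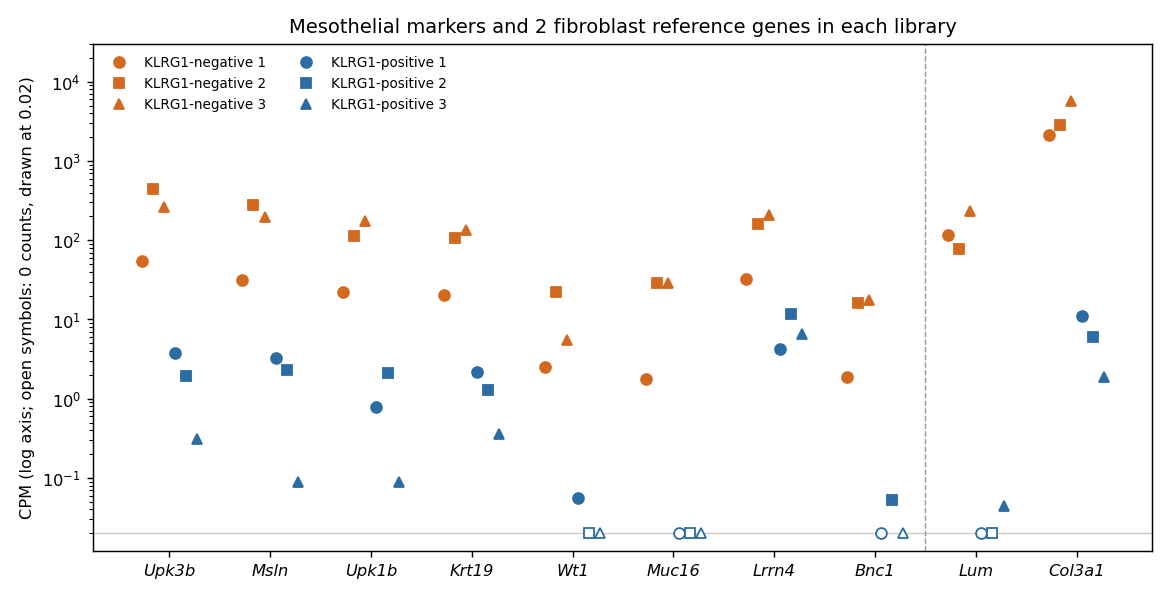
CPM of the 8 mesothelial markers and of Lum and Col3a1 in each of the 6 libraries (log axis; orange, KLRG1-negative; blue, KLRG1-positive; open symbols, 0 counts). For every gene the 3 KLRG1-negative libraries lie above the 3 KLRG1-positive ones, and in all 8 markers KLRG1-negative library 1 is the lowest of its group.

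Among the surface proteins, Upk3b (ENSMUSG00000042985, GRCm38 chromosome 5, 136038496 to 136046487, plus strand) was the most abundant marker in CPM in each KLRG1-negative library. The KLRG1-negative libraries held 54.0, 442 and 265 CPM and the KLRG1-positive ones 3.77, 1.92 and 0.311 CPM. KLRG1-negative library 1 was the lowest of its group and KLRG1-positive library 3 the lowest of all. The group means differed 127-fold (log2 fold change -6.99 ± 1.24 SE, n = 3 per group, adjusted p = 0.0588).

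Msln (ENSMUSG00000063011, chromosome 17, 25748614 to 25754327, minus strand), which encodes the precursor of mesothelin, stood at 31.6, 276 and 195 CPM in KLRG1-negative libraries. The KLRG1-positive libraries held 3.27, 2.30 and 0.0888 CPM, the last from 2 counts. The order of the libraries was that of Upk3b in both groups. The means differed 89.1-fold (log2 fold change -6.49 ± 1.39 SE, adjusted p = 0.0818).

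Muc16 (ENSMUSG00000109564, chromosome 9, 18495455 to 18674530, minus strand), the membrane mucin that binds mesothelin, was the 1 marker with no count in any KLRG1-positive library. It stood at 1.78, 28.7 and 29.2 CPM in KLRG1-negative libraries. Against a floor of 3 counts over the KLRG1-positive group, which is 0.0508 CPM, it was at least 419-fold lower there (adjusted p = 0.0885). Muc16 had the widest gap among the KLRG1-negative libraries, with library 2 at 16.1 times and library 3 at 16.4 times the level of library 1.

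Upk1b (ENSMUSG00000049436, chromosome 16, 38773184 to 38800203, minus strand), a tetraspanin-type uroplakin, stood at 22.0, 115 and 175 CPM in KLRG1-negative and at 0.788, 2.08 and 0.0888 CPM in KLRG1-positive libraries. Here library 3, not library 2, was the highest of the KLRG1-negative group. The means differed 105-fold (log2 fold change -6.72 ± 1.31 SE, adjusted p = 0.0689).

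Of the 4 other uroplakins listed, few counts were found. Upk2 and Upk3bl had no count in any library, and Upk3a had 31 counts, all in KLRG1-negative library 3. Upk1a stood at 0.556 to 3.59 CPM in KLRG1-negative and 0.507 to 0.855 CPM in KLRG1-positive libraries, overlapping ranges. It was the 1 of the 4 that passed the filter, and its difference did not pass the test (adjusted p = 0.472).

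Lrrn4 (ENSMUSG00000043110, chromosome 2, 132868305 to 132880891, minus strand) had the smallest fold change of the 8. It stood at 32.0, 160 and 211 CPM in KLRG1-negative and at 4.22, 11.7 and 6.61 CPM in KLRG1-positive libraries. It was thus the marker with the most counts in the KLRG1-positive libraries, 75, 220 and 149, and there KLRG1-positive library 3, with at most 8 counts of any other marker, was not the lowest. The means differed 17.8-fold (log2 fold change -4.16 ± 0.80 SE, adjusted p = 0.0682).

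Krt19 (ENSMUSG00000020911, chromosome 11, 100140810 to 100148665, minus strand), an intermediate filament protein, stood at 20.2, 105 and 135 CPM in KLRG1-negative and at 2.20, 1.28 and 0.355 CPM in KLRG1-positive libraries. The means differed 68.0-fold (log2 fold change -6.09 ± 1.03 SE, adjusted p = 0.0543). Genes of the lung epithelium, which also makes Krt19, were present as well, with sums of 612, 97.2 and 86.3 CPM in KLRG1-negative libraries 1, 2 and 3, and their part in the Krt19 level was not tested.

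The keratins Krt7, Krt8 and Krt18, which simple epithelia also make, had the same separation between the groups, and 0 of the 3 passed (edgeR; at an unadjusted p under 0.05, 3 were lower, as were 3 by DESeq2). Krt18 stood at 9.62, 17.7 and 17.7 against 2.31, 2.72 and 2.89 CPM (adjusted p = 0.0566). Krt7 stood at 3.73, 25.2 and 27.4 against 1.07, 0.694 and 0.0888 CPM (adjusted p = 0.100).

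The transcription factors were rarer. Wt1 (ENSMUSG00000016458, chromosome 2, 105126529 to 105173616, plus strand), a regulator of the embryonic mesothelium, kidney and gonad, stood at 2.50, 22.4 and 5.57 CPM in KLRG1-negative libraries. The KLRG1-positive libraries held 1 count in all, in library 1. The level over the group was 671 times as high in the KLRG1-negative libraries, and its 95% counting interval ran from 120 to 26523 (adjusted p = 0.0574). In Wt1 KLRG1-negative library 2 alone stood high, at 4.02 times library 3.

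Bnc1 (ENSMUSG00000025105, chromosome 7, 81966672 to 81992292, minus strand), which encodes basonuclin 1, stood at 1.89, 16.2 and 17.4 CPM in KLRG1-negative libraries. It had 1 count over the KLRG1-positive libraries, in library 2. The ratio was 742, with a counting interval of 133 to 29357, and its adjusted p of 0.0525 was the smallest of the 8. A pseudogene on the opposite strand overlaps 2.11% of its exon length and had 1 count in all. Exons of no other listed gene overlapped those of the other 7 markers.

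Per kilobase of exon the markers formed an abundant and a rare set. Mean levels in the KLRG1-negative libraries were 79.4 ± 59.0 CPM per kilobase for Msln (SD, n = 3), 71.8 ± 55.0 for Upk3b, 58.7 ± 43.5 for Upk1b, 46.9 ± 32.2 for Krt19 and 36.2 ± 24.8 for Lrrn4. Bnc1 followed at 2.55 ± 1.86, Wt1 at 1.64 ± 1.73 and Muc16 at 0.755 ± 0.595 CPM per kilobase. The step from Lrrn4 to Bnc1 was 1.36 times the larger SD, and every other pair of neighbours in this order differed by less than the larger SD. Within each KLRG1-negative library Krt19 was the fourth and Lrrn4 the fifth of the 8, while the first place went to Upk3b, Msln and Upk1b in libraries 1, 2 and 3. In the KLRG1-positive libraries Lrrn4 led on average, at 2.03 ± 1.04 CPM per kilobase, ahead of Msln at 0.891 ± 0.770. Msln was above Lrrn4 in library 1 and below it in the other two.

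By the median, KLRG1-negative libraries 2 and 3 stood further above library 1 in the markers than in the fibroblast genes. Library 2 held 5.01 to 16.1 times as much of each marker as library 1, with a median of 8.38, and library 3 held 2.23 to 16.4 times as much, with a median of 6.64. Over the 10 genes of the fibroblast list the same ratios were 0.658 to 2.96, with a median of 1.61, and 1.44 to 3.56, with a median of 2.42. All 8 markers lay above the highest fibroblast gene in the ratio of library 2 to library 1. In the ratio of library 3 to library 1, 7 of 8 did, Wt1 being the exception. Between libraries 2 and 3 the markers did not stand apart in this way: library 2 held 0.656 to 4.02 times as much of each marker as library 3, with a median of 0.958, and 0.330 to 1.75 times as much of each fibroblast gene, with a median of 0.629. The gap to library 1 was not particular to the markers. Over the 12 further mesothelial genes tested, the ratio to library 1 ran from 1.15 to 26.4 in library 2 and from 1.15 to 15.0 in library 3. These ranges overlap those of the fibroblast genes. The ILC2 sum was also lowest in library 1, at 541, 2658 and 2062 CPM in libraries 1, 2 and 3. All 5 ILC2 genes likewise lay above the highest fibroblast gene in the ratio of library 2 to library 1, from 3.02 (Rora) to 9.68 (Arg1). In the ratio of library 3 to library 1, Il1rl1, Arg1 and Il5 did, and Gata3 and Rora did not. The share of all genes tested with such ratios was not counted. The 3 libraries are of 1 group, so the comparisons carry no test.

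**Figure D2:**
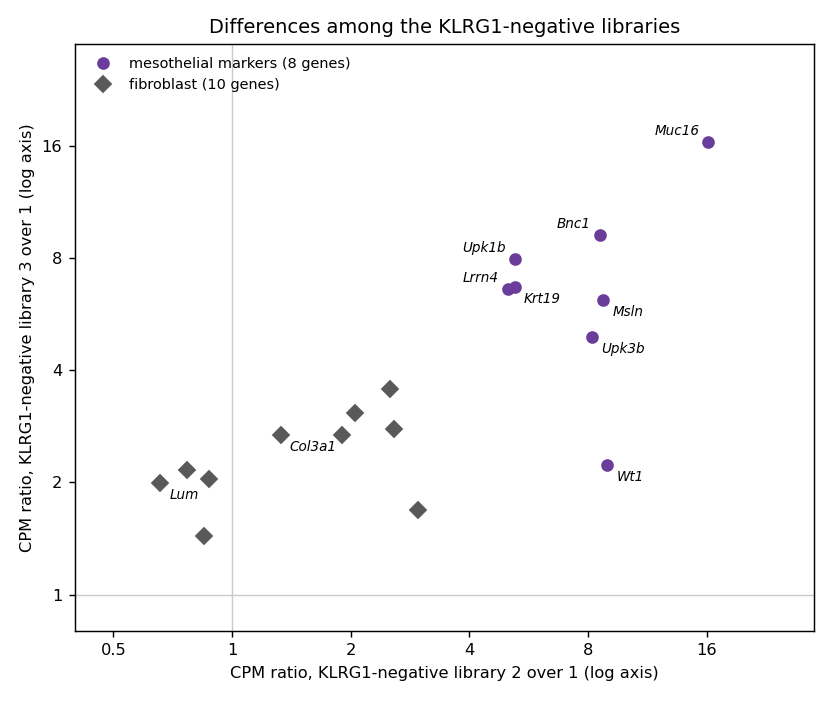
CPM in KLRG1-negative library 2 (horizontal) and 3 (vertical) as a ratio to library 1, both on log axes, for the 8 mesothelial markers (purple) and the 10 fibroblast genes (grey). All 8 markers lie to the right of every fibroblast gene, as would the 5 ILC2 genes, which are not drawn. Wt1 lies low, at 2.23 times library 1 in library 3.

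Lum and Col3a1, which encode the matrix proteoglycan lumican and the collagen III chain of fibroblasts, had the same direction as the markers and passed the test with all 6 libraries. Lum stood at 118, 77.3 and 234 CPM in KLRG1-negative libraries and had 1 count over the KLRG1-positive ones (adjusted p = 0.0124; 0.0409 with the replicate block). Col3a1 stood at 2146, 2849 and 5763 against 11.1, 5.98 and 1.86 CPM (log2 fold change -9.15 ± 0.94 SE, adjusted p = 0.0217). With the block Col3a1 did not pass (adjusted p = 0.0686). The SE of the log2 fold change was 0.90 for Lum and 0.94 for Col3a1, and 0.80 to 2.03 over the 8 markers.

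Within a library a ratio of 2 genes needs no scaling, and per kilobase it compares their levels. Upk3b reached 31.8% of Lum in KLRG1-negative library 1 (95% counting interval 29.5 to 34.4%), 396% in library 2 (378 to 416%) and 78.5% in library 3 (75.5 to 81.6%). Msln gave 31.1, 414 and 96.6% of Lum. Among the KLRG1-negative libraries, library 2 was thus the only one in which Upk3b and Msln exceeded Lum per kilobase. In library 3 the counting interval of Msln, 92.6 to 100.7%, took in equal levels. Without gene length Upk3b was at 113% of Lum in library 3. The Upk3b ratios per kilobase of the 3 libraries had counting intervals that did not overlap. Against Col3a1, Upk3b reached 6.99, 43.1 and 12.8% in the KLRG1-negative libraries. The ratio to Lum was not formed in the KLRG1-positive libraries, where Lum had at most 1 count.

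Relative to Col3a1, most of the 5 abundant markers stood higher in the KLRG1-positive libraries. Upk3b was at 94.6% (interval 70.6 to 125%), 89.4% (59.6 to 131%) and 46.3% (17.6 to 104%) of Col3a1 there, the third value from 7 counts. Krt19 was at 105, 113 and 101%, against 4.98 to 19.6% in the KLRG1-negative libraries. Lrrn4 was at 101, 519 and 937%, against 3.94 to 14.9%. For Upk3b, Upk1b, Krt19 and Lrrn4 the 3 ratios of 1 group did not overlap those of the other, while for Msln they did, at 22.1 to 178% against 6.84 to 45.0%. In KLRG1-positive library 3 the ratios of Upk1b (26.4%, interval 3.10 to 102%) and Msln (22.1%, interval 2.59 to 85.0%) rest on 2 counts each. Those intervals, and that of Upk3b from 7 counts, reach into the range of the KLRG1-negative libraries. The means of Col3a1 itself differed 568-fold between the groups, against 17.8- to 127-fold for the 5 markers. A gene that falls less than Col3a1 tends to a higher ratio in the KLRG1-positive libraries, marker or not. The share of all genes with such a separation was not counted. The difference in these ratios between the groups was not tested.

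**Figure D3:**
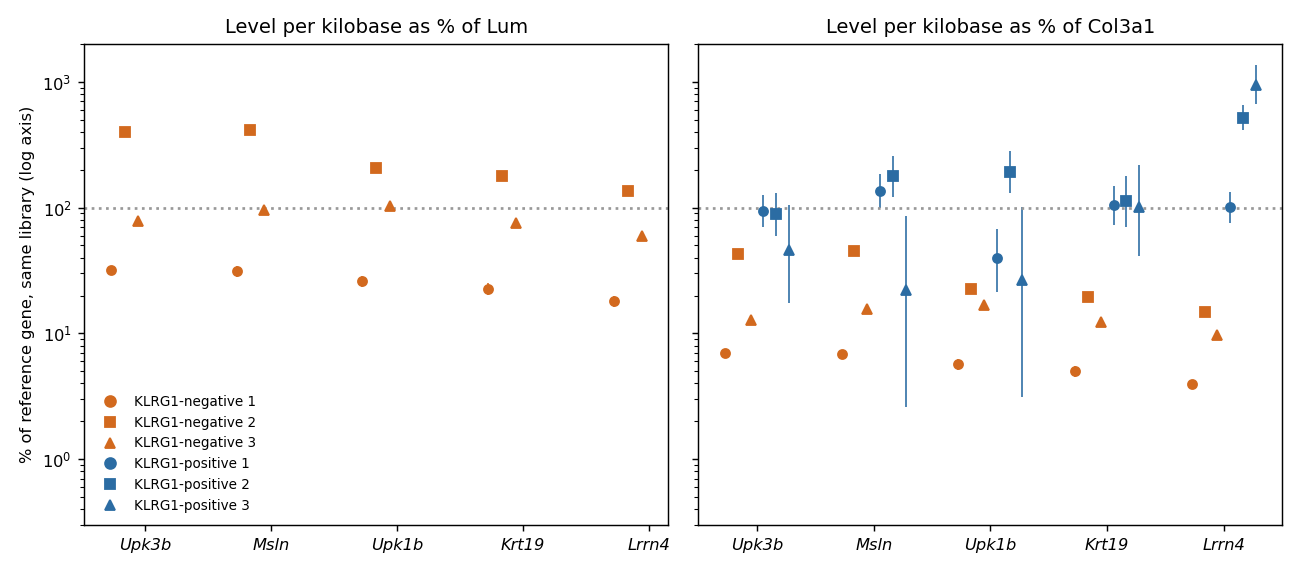
Level per kilobase of the 5 abundant markers as a percentage of Lum (left) and of Col3a1 (right) in the same library (log axis; bars, 95% counting intervals; dotted line, equal levels). Upk3b runs from 31.8 to 396% of Lum among the KLRG1-negative libraries, and Lrrn4 reaches 937% of Col3a1 in KLRG1-positive library 3.

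Most further genes known from mesothelial cells were also more abundant in the KLRG1-negative libraries. Of 13 listed, Calb2 (calretinin) had no count in any library and 12 were tested. In KLRG1-positive cells 2 of the 12 were lower, 0 were higher and 10 did not pass (edgeR; at an unadjusted p under 0.05, 11 were lower, as were 11 by DESeq2). The median log2 fold change was -7.47, and in all 12 the KLRG1-negative libraries lay above the KLRG1-positive ones. The 2 that passed were Pkhd1l1, a large receptor-like membrane protein, and Pdpn, the mucin-type protein podoplanin. Pkhd1l1 stood at 2.95, 30.8 and 44.3 CPM in KLRG1-negative libraries and had 1 count over the KLRG1-positive ones (adjusted p = 0.0462; 0.0443 with the block). Pdpn stood at 4.84, 14.1 and 19.3 CPM and had 1 count as well (adjusted p = 0.0386; 0.0898, not passing, with the block). Pdpn is also made by lymphatic endothelium and some fibroblasts.

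Other members of that list came close to the markers in level. Rspo1, a secreted activator of Wnt signalling, stood at 3.06, 80.9 and 21.0 CPM against at most 0.107 CPM (adjusted p = 0.0607). Like Wt1 it was highest in KLRG1-negative library 2. Aldh1a2, which makes retinoic acid, stood at 16.6, 58.9 and 132 against 2.93, 3.15 and 5.15 CPM (adjusted p = 0.0677). Prg4, the lubricating proteoglycan lubricin, had the smallest difference, at 25.0, 28.7 and 43.2 against 13.6, 17.4 and 3.11 CPM (log2 fold change -1.51 ± 0.64 SE, adjusted p = 0.337). Efemp1, a matrix protein that fibroblasts also make, was nearly even among the KLRG1-negative libraries, at 99.4, 136 and 115 CPM (adjusted p = 0.106).

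**Figure D4:**
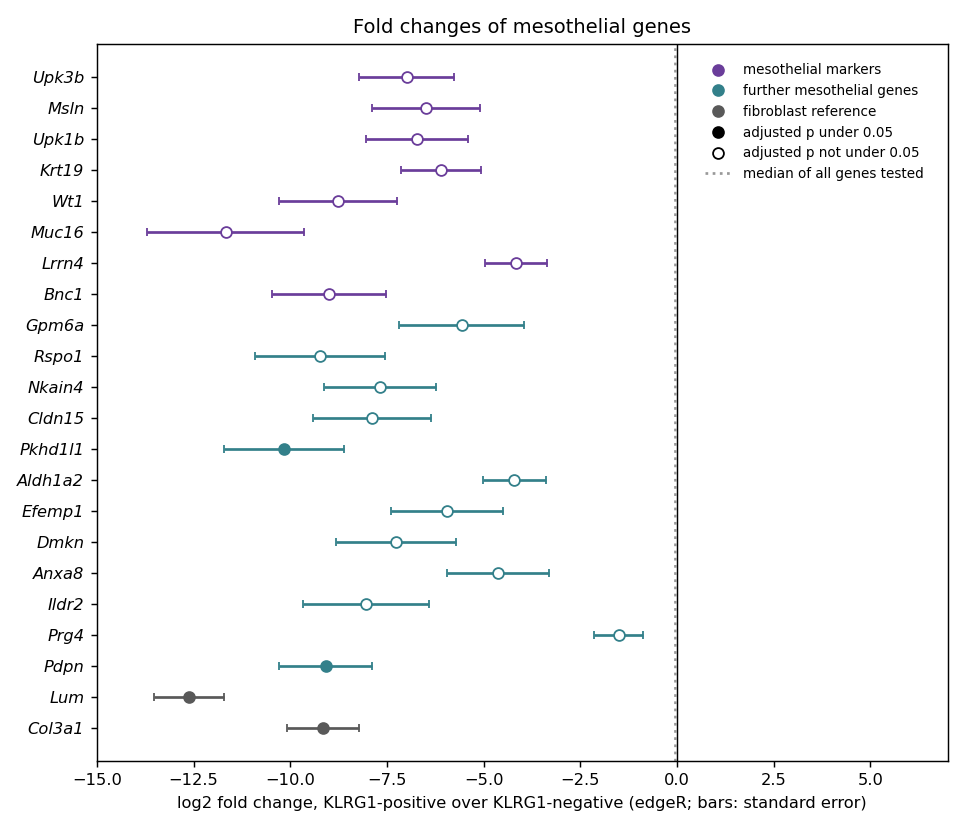
Log2 fold changes of KLRG1-positive over KLRG1-negative cells by edgeR (bars, standard error) for the 8 markers (purple), the 12 further mesothelial genes tested (green) and the 2 references (grey); filled points passed an adjusted p of 0.05. The 8 markers run from -11.67 to -4.16, all as open points, and the fitted value of Muc16, which had 0 counts in the KLRG1-positive group, depends on the prior count.

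Markers of other cell types were compared in the same libraries, and their part in these results was not tested. Fibroblast genes summed to 4126 to 11372 CPM in KLRG1-negative and to 153 to 177 CPM in KLRG1-positive libraries, and 8 of 10 were lower (2, Lum and Col14a1, with the block). Besides Col3a1, the most abundant of the 8 were the decorin gene Dcn at 728, 1869 and 2029 CPM, Col1a2 at 475, 972 and 1458 CPM and Col1a1 at 330, 831 and 1174 CPM in KLRG1-negative libraries, against at most 7.42, 4.17 and 1.46 CPM in KLRG1-positive ones. Npnt, which is on that list, had the opposite direction: the KLRG1-negative libraries held 21.7, 64.1 and 36.7 CPM and the KLRG1-positive ones 121, 152 and 163 CPM (adjusted p = 0.0916). Lung epithelial genes summed to 612, 97.2 and 86.3 CPM in KLRG1-negative and to 552, 13.2 and 13.1 CPM in KLRG1-positive libraries. Of 12 such genes 7 were tested and 0 passed (edgeR; 0 also at an unadjusted p under 0.05 and by DESeq2), and Nkx2-1, the lung epithelial transcription factor, had no count in any library. The epithelial sum was carried by Sftpc and Sftpa1 only in the libraries numbered 1. Elsewhere its largest part came from Scgb1a1 in KLRG1-negative and from Epcam in KLRG1-positive libraries. Scgb1a1, a secretory protein of airway club cells, had 53.1, 66.5 and 43.1 CPM where cells were KLRG1-negative, against 42.1, 0.214 and 0.0444 CPM. Epcam, an epithelial adhesion protein, stood at 3.84, 5.05 and 7.78 against 0.338, 8.12 and 9.01 CPM. Endothelial genes summed to 119 to 410 and 95.7 to 240 CPM and macrophage genes to 65.2 to 319 and 38.0 to 260 CPM, overlapping ranges. Of the endothelial genes 0 of 5 passed, and of the macrophage genes 0 of 4 (edgeR). At an unadjusted p under 0.05, and by DESeq2, 0 endothelial genes and 1 macrophage gene, Mrc1, were lower. Mrc1 stood at 17.8, 7.57 and 36.4 against 5.97, 6.46 and 5.55 CPM, without overlap (adjusted p = 0.221). Genes of mural cells were scarce, at 5.05 to 16.7 and 0.0444 to 4.45 CPM, and 0 of the 2 tested passed (edgeR; 0 at an unadjusted p under 0.05 and 0 by DESeq2). T cell genes summed to 2587, 1002 and 555 CPM in KLRG1-negative libraries, an order opposite to that of the fibroblast sum, and to 47.2 to 141 CPM in KLRG1-positive ones, and 1 of 4, Cd28, was lower (3, Cd3e, Cd3d and Trac, with the block). B cell genes summed to 5144 to 21111 and 2002 to 7062 CPM, and 0 of 4 passed (edgeR; 4 at an unadjusted p under 0.05, 2 by DESeq2 and 3 with the block).

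**Figure D5:**
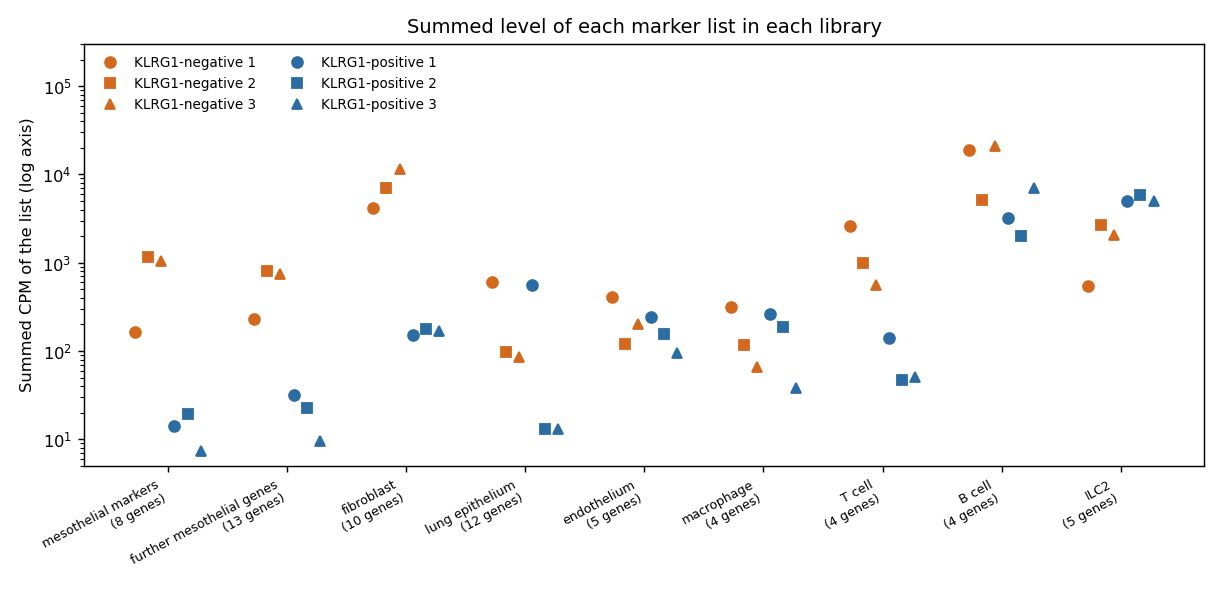
Summed CPM of each marker list in each library (log axis; number of genes in parentheses). The mesothelial sums of 166 to 1166 CPM in KLRG1-negative and 7.46 to 19.4 CPM in KLRG1-positive libraries do not overlap. The epithelial sum is highest in library 1 of each group, where Sftpc and Sftpa1 carry most of it.

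The genes with the profile most like that of the markers were sought by the Pearson correlation of log2 CPM over the 6 libraries with the mean of the 8. Among 12209 genes the nearest were Ctsl (cathepsin L, r = 0.9966), Nkain4 (0.995), Apoe (apolipoprotein E, 0.9948), Adamts2 (a procollagen protease, 0.9935) and Nectin2 (a cell adhesion protein, 0.9931). Col3a1 reached 0.9692 and Lum 0.9364. These values are a description: all points share the 6 libraries and the difference between the 2 groups, and 359 of the genes reached 0.95 or more. Ctsl stood at 78.0, 175 and 211 against 19.6, 20.1 and 9.90 CPM, and Nkain4, which is on the list of further mesothelial genes, at 8.07, 74.4 and 74.7 against 0.563, 0.214 and 0 CPM. Ctsl (adjusted p = 0.0454; 0.111 with the block) and Adamts2 (adjusted p = 0.0448; 0.0685 with the block) were lower in KLRG1-positive cells without the block and did not pass with it, and Nkain4, Apoe and Nectin2 passed in neither fit.

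Calls depended on single libraries. Among the markers, Lrrn4 (adjusted p = 0.0445) and Bnc1 (0.0480) passed without KLRG1-negative library 1, and Krt19 (0.0457), Muc16 (0.0404) and Lrrn4 (0.0434) passed without both libraries numbered 1. The direction of all 8 was the same in every edgeR fit with libraries left out, and the size varied. With 1 library left out, the log2 fold change ran from -10.74 to -7.28 for Wt1, from -10.95 to -8.35 for Bnc1, from -7.83 to -6.16 for Upk3b and from -7.91 to -6.03 for Upk1b.

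Other named genes changed their calls too. Without KLRG1-negative library 1, Rspo1 (0.0492) and Aldh1a2 (0.0445) passed, and Cd28 (0.0689) and the fibroblast gene Pi16 (0.0575) did not. Without both libraries numbered 1, Efemp1 (0.0160), Gpm6a (0.0498), Dmkn (0.0312), Apoe (0.0428), Scgb1a1 (0.0404), Cd3e (0.0404) and Trac (0.0377) passed, and Pdpn (0.0592), Cd28 (0.0766), Ctsl (0.0656), Col1a2 (0.0553) and Pi16 (0.0950) did not. The reference genes were as sensitive. Lum did not pass without KLRG1-negative library 3 (0.0612) or KLRG1-positive library 2 (0.106) or 3 (0.0786). Col3a1 did not pass without KLRG1-negative library 2 (0.0726) or 3 (0.0723) or KLRG1-positive library 2 (0.145) or 3 (0.0628). Of the 6 fits with 1 library left out, Pkhd1l1, Pdpn, Ctsl and Adamts2 passed in 1 each and Cd28 in 0.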

How the data were processed

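The authors deposited raw counts of reads per gene, made with featureCounts 1.5.2 on Ensembl release 90 gene models of GRCm38, per the file headers, without strand or read pairs; reads that mapped to several places or to several genes were not counted. Multi-mapping alignments were 26.3 to 32.3% of each library, so genes with close copies are understated. STAR 2.4.1d and bcl2fastq are named in the submitters' processing notes. Exon length is another column of the deposited table.

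Symbols came from GENCODE release M21, which named 52403 of the 52636 identifiers. Counts were tested with edgeR 4.0.16 (R 4.3.3; robust quasi-likelihood, TMM, filterByExpr by group) over 15197 genes, with Benjamini-Hochberg adjustment at 0.05; the scripts were tested on simulated data. An adjusted p with no other name is from this test. SE values derive from the F statistic. DESeq2 1.42.0, other scalings, no filter, non-robust dispersion, the replicate block and leaving out libraries were alternatives. After subtraction of the group means, libraries that share a number had correlations of 0.382, 0.338 and 0.188 over genes, all above 0.1, so the numbers were read as pairing, from the data and not the labels. The reported edgeR test leaves this pairing out, and only the fits with the replicate block use it. With the block in edgeR the adjusted p of the 8 markers ran from 0.0680 to 0.167.

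The members, lists and tests were chosen with earlier results of these data known. The rule for named genes took the 8 markers, Lum, Col3a1, the 5 nearest profiles and, per list, up to 4 genes that passed or else the 2 most abundant, not all of which are printed. Rspo1, Aldh1a2, Prg4, Efemp1, Upk2, Upk3a, Upk3bl, Calb2, Npnt, Nkx2-1, Cd3e, Cd3d, Trac, Col14a1, Scgb1a1, Epcam, Gpm6a, Dmkn, Pi16, Mrc1, Rora, Il1rl1 and Il5 were named after their values were seen.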

Additional observations from a re-analysis of the deposited data

How the results depend on the processing

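All 8 markers kept a negative log2 fold change under every setting run, while the calls and, for Wt1, Bnc1, Upk3b and Upk1b above all, the size of the fold depended on the libraries kept. The count of markers called lower, 0 in the reported test, was 0 with DESeq2 size factors, with library size only and with the replicate block in edgeR, 2 with non-robust dispersion (Krt19 and Bnc1), 5 without the filter on low counts (Upk3b, Krt19, Wt1, Lrrn4 and Bnc1), and 8 with DESeq2. Leaving out 1 library at a time gave 0 to 2, the 2 without KLRG1-negative library 1. Among alternatives chosen after seeing the data, DESeq2 with the block called 8, and fits without both libraries numbered 1, 2 or 3 gave 3, 0 and 0. In each of these fits 8 of 8 were lower at an unadjusted p under 0.05. Over all genes, 1752 were lower at that threshold in the reported test (11.5% of those tested). In the other fits that number ran from 1159 to 2680.

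Over all genes the count called lower was 184, and 282 without the filter (1.05% of 26868), 53 with the block, 1609 with DESeq2, 1834 with DESeq2 and the block, 0 to 159 with 1 library left out (91, 4 and 0 without KLRG1-negative library 1, 2 or 3, and 159, 0 and 1 without KLRG1-positive library 1, 2 or 3), and 168, 0 and 0 without both libraries numbered 1, 2 or 3. The cause was not tested. With the replicate block, 0 of 8 markers were called, as without it; it ended the calls of Pdpn, Cd28 and 6 of 8 fibroblast genes, Col3a1 among them, and added calls of 3 T cell and 3 B cell genes.

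Without gene length, the sum of the 8 markers was lower relative to Col3a1 in all 6 libraries, a shift that follows from the lengths. It was 7.73, 40.9 and 17.9% in the KLRG1-negative libraries (28.8, 148 and 68.4% per kilobase) and 129, 324 and 400.0% in the KLRG1-positive ones (477, 1095 and 1133% per kilobase). With 0 or 1 count in the KLRG1-positive group, depth limits the fold changes of Wt1, Muc16 and Bnc1.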
